A study of Sus scrofa with 15 samples.

Results

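*GADD45B* (ENSSSCG00000022689), *GADD45G* (ENSSSCG00000035249) and *TRIB1* (ENSSSCG00000038500) are 3 of the 16660 genes in the count table, and all 3 were among the 11553 genes tested. They were chosen by their higher counts in WT than in NC in these same libraries, where the study's list for WT and its stress-activated MAPK term hold them. The comparison of WT with NC is therefore described here without a test. *GADD45G* is also in the study's list for Tg1 and *TRIB1* in its list for Tg2, and every comparison with NC or WT reuses libraries that the choice used. The fold changes among Tg1, Tg2 and Tg3 set none of the NC or WT libraries against each other. Their intervals and p-values come from a model of all 15 libraries and so still draw on the spread within NC and WT.

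LLC-PK1 cells, an epithelial line derived from the renal proximal tubule of the pig, were transiently transfected with a plasmid by Lipofectamine, and RNA was isolated 48 h later. NC cells received the empty plasmid, WT cells received human *PKD2*, and the mutant plasmids carried D511V (Tg1), L656W (Tg2) or the truncating R742X (Tg3), at 3 µg of plasmid per well. *PKD2* encodes polycystin-2, a cation channel that is mutated in a share of patients with autosomal dominant polycystic kidney disease (ADPKD). The insert was driven by the CAG promoter, a strong promoter used across cell types, so the model is overexpression on top of the pig gene of a single line. Of the 4 wells of each plasmid, 3 gave RNA, which makes 15 libraries with 3 replicates for each of the 5 plasmids. No source says that the wells came from separate experiments, so the p-values measure the spread between wells. Neither the transgene nor the pig *PKD1* and *PKD2* genes were analysed here.

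The libraries held 20216200 to 26132196 counts (median 22398918). All 17 proximal tubule and epithelial markers found in the table were expressed, with a summed level of 4737 to 5134 CPM per library, CPM being a gene's count relative to the library total. The 9 markers of other cell types in the table summed to 7.74 to 10.7 CPM per library, 2 of them (*CD68* and *DES*) passed the filter on low counts, and the leukocyte marker *PTPRC* was at 0 in 9 libraries. In bulk RNA, a change in the number of cells that express a gene and a change in RNA per cell cannot be told apart.

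GADD45 proteins are small acidic proteins induced by DNA damage and other stress. They bind and activate MAP3K4 (MTK1), a MAP kinase kinase kinase that acts through MAP2 kinases on p38 and JNK, and they also bind the cell cycle proteins CDKN1A and PCNA. TRIB1 is a pseudokinase of the Tribbles family that brings the ubiquitin ligase COP1 to C/EBP transcription factors, which are then degraded, and it also binds MAP2 kinases. Transcripts of all 3 genes are known to respond quickly to stress and growth signals.

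*GADD45B* had 30.1, 33.3 and 36.1 CPM in NC replicates 1 to 3, and 51.5, 35.5 and 53.7 CPM in the WT replicates, after scaling by the trimmed mean of M-values (TMM). In the mutants it had 36.0, 39.5 and 42.8 CPM for Tg1, 34.8, 37.5 and 38.3 CPM for Tg2, and 39.6, 31.6 and 34.4 CPM for Tg3. WT replicates 1 and 3 stood above all other libraries, whereas WT replicate 2 lay within the NC range. The order of the means was WT (46.9 ± 9.94, SD, n = 3), Tg1 (39.4 ± 3.40), Tg2 (36.8 ± 1.82), Tg3 (35.2 ± 4.07) and NC (33.2 ± 3.01), and each plasmid overlapped with its neighbours in this order.

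For *GADD45G*, NC replicates 1 to 3 had 31.0, 31.7 and 38.6 CPM, and the WT replicates had 58.1, 37.9 and 60.3 CPM. Tg1 had 43.8, 47.1 and 48.4 CPM, Tg2 had 31.5, 44.8 and 45.5 CPM, and Tg3 had 40.04, 28.1 and 40.1 CPM. Again WT replicates 1 and 3 were the highest of the 15 libraries and WT replicate 2 fell inside the NC range. The 3 Tg1 libraries lay close together and above every NC and every Tg3 library, while Tg2 replicate 1 and Tg3 replicate 2 were within or below the NC range. The means ran from WT (52.1 ± 12.3, SD, n = 3) through Tg1 (46.4 ± 2.37), Tg2 (40.6 ± 7.91) and Tg3 (36.1 ± 6.90) to NC (33.8 ± 4.23), with overlap between all neighbours.

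*TRIB1* had 166, 170 and 182 CPM in NC and 251, 195 and 245 CPM in WT. The levels were 175, 215 and 225 CPM in Tg1, 181, 222 and 220 CPM in Tg2, and 197, 168 and 197 CPM in Tg3. It was the only one of the 3 genes for which every WT library exceeded every NC library, and WT replicate 2 was again the lowest of its group. Here Tg2 (208 ± 23.1, SD, n = 3) came after WT (230 ± 30.6) and just before Tg1 (205 ± 26.5), followed by Tg3 (187 ± 16.6) and NC (173 ± 8.39), and neighbours overlapped. NC was thus the lowest and WT the highest mean for all 3 genes, and Tg3 was the mutant nearest to NC.

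**Figure D1:**
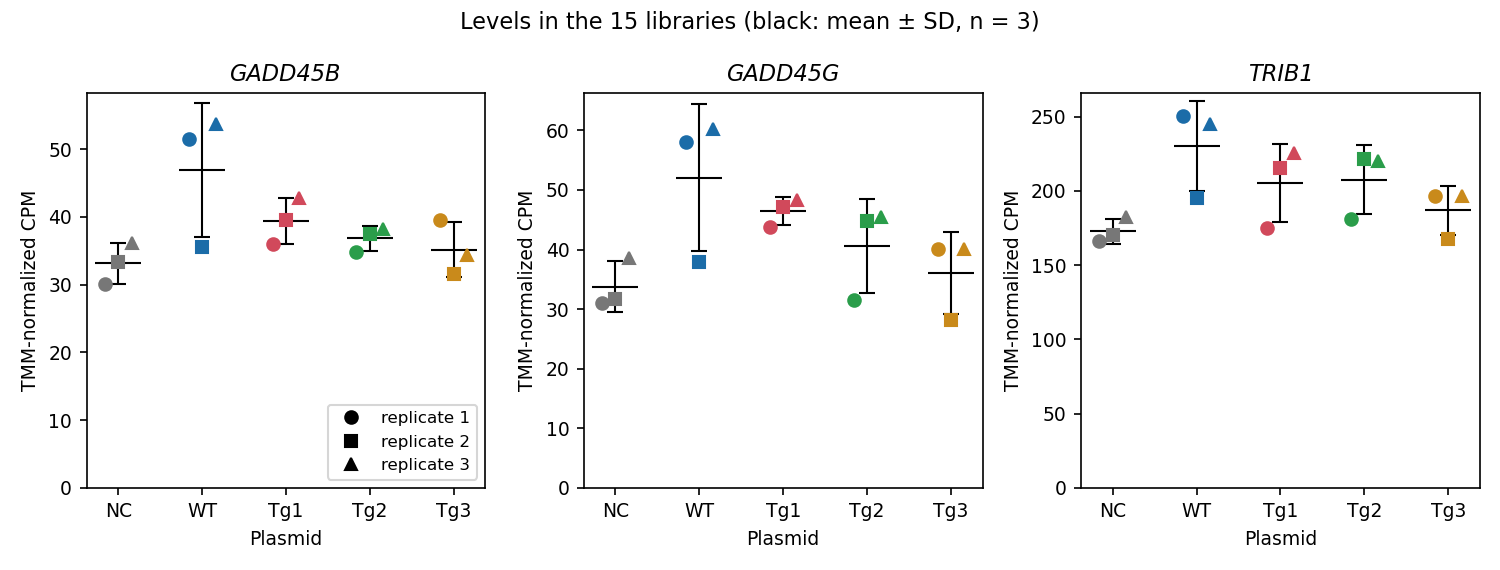
TMM-normalized CPM of *GADD45B*, *GADD45G* and *TRIB1* (y axes, from 0) for the 5 plasmids (x axis). Each point is a library, with its shape giving the replicate number, and black bars give the mean ± SD over 3 libraries. WT replicate 2 (square) sits at 35.5, 37.9 and 195 CPM, below the other WT libraries in each panel.

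The 3 genes had enough reads for counting noise to be a small part of this spread. *GADD45B* had 625 to 1227 counts per library, *GADD45G* 557 to 1376 and *TRIB1* 3323 to 5592. Counting alone gives a coefficient of variation of 2.85 to 4%, 2.70 to 4.24% and 1.34 to 1.73%, respectively, whereas replicates of a plasmid varied by 4.94 to 21.2%, 5.10 to 23.7% and 4.85 to 13.3%. On the log2 scale the SD within plasmids was 0.19 for *GADD45B*, 0.26 for *GADD45G* and 0.16 for *TRIB1*, against 0.092 for the median tested gene. That of *GADD45G* exceeded the SD of 94.5% of the tested genes, and those of *GADD45B* and *TRIB1* exceeded 85.3% and 79.6%.

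WT was first set beside NC, to ask what extra normal polycystin-2 does. The levels of *GADD45B*, *GADD45G* and *TRIB1* were 1.41, 1.54 and 1.33 times those of NC, which are log2 fold changes of 0.50, 0.62 and 0.41. Sorted from the highest to the lowest log2 fold change, they took places 22, 11 and 40 of the 11553 genes. These values chose the genes and are given as a description. Every WT library was above every NC library for 1 of the 3 genes, *TRIB1*, as for 3.73% of all tested genes. Without WT replicate 2 the log2 fold changes were 0.66, 0.81 and 0.52. As background, 0% of the tested genes were differentially expressed genes (DEGs, which needed an adjusted p of at most 0.05 and a log2 fold change of at least 0.26 in size) between WT and NC by edgeR. That count of 0 stood beside 524 genes with an unadjusted p under 0.05, and DESeq2 called 10 DEGs.

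Each mutant was then compared with NC, to ask whether a mutated channel moved the same genes. None of the 3 genes was a DEG in a mutant by edgeR's quasi-likelihood test, and the 3 comparisons share the NC libraries. The study lists *GADD45G* for Tg1 and *TRIB1* for Tg2, but DESeq2 as run here called neither. The cause of that difference was not tested. In Tg1, the log2 fold changes were 0.25 for *GADD45B* (SE 0.13, adjusted p = 0.306), 0.46 for *GADD45G* (SE 0.18, adjusted p = 0.182) and 0.25 for *TRIB1* (SE 0.11, adjusted p = 0.237). Of all tested genes, 1.19% were DEGs in Tg1. All Tg1 libraries exceeded all NC libraries for *GADD45G* only, as they did for 11.9% of the tested genes. When only the 6 libraries of Tg1 and NC were fitted, *GADD45G* passed the test (log2 fold change 0.46, adjusted p = 0.0407 by edgeR).

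Tg2 had many more DEGs than the other mutants, 8.43% of the tested genes, and the 3 genes were not among them. The log2 fold changes over NC were 0.15 for *GADD45B* (95% confidence interval -0.13 to 0.43), 0.26 for *GADD45G* (-0.13 to 0.65) and 0.26 for *TRIB1* (0.024 to 0.50), with edgeR's adjusted p at 0.435, 0.315 and 0.111. No member of the trio separated Tg2 from NC without overlap, which 17.5% of the tested genes did in the upward direction. In Tg3 the estimates were closer to 0, at 0.085 for *GADD45B* (-0.20 to 0.37), 0.099 for *GADD45G* (-0.29 to 0.49) and 0.11 for *TRIB1* (-0.13 to 0.35). edgeR called 0% of the tested genes in Tg3, beside 2089 genes with an unadjusted p under 0.05 and 45 DEGs by DESeq2. Tg3 and NC libraries overlapped for all 3 genes, whereas 13.4% of the tested genes had every Tg3 library above NC. The intervals still allow a rise of up to 0.37, 0.49 and 0.35 on the log2 scale for Tg3, so an absence of change was not shown.

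Each mutant was also compared with WT, at the same mass of plasmid per well, while the amount of transgene expressed was not analysed here. All 9 estimates were below 0 and none passed the test. The WT libraries took part in the choice of the genes, which favours high WT values. In Tg3 the log2 differences were -0.42 for *GADD45B* (SE 0.13, edgeR's adjusted p = 0.148), -0.52 for *GADD45G* (SE 0.18, adjusted p = 0.167) and -0.30 for *TRIB1* (SE 0.11, adjusted p = 0.192). Those of Tg2 were -0.35, -0.36 and -0.15 (adjusted p = 0.083, 0.17 and 0.358). For Tg1, they were -0.25, -0.17 and -0.17 (adjusted p = 0.364, 0.657 and 0.475). DEGs made up 0.0692% of the tested genes for Tg1 against WT, 5.92% for Tg2 and 0% for Tg3, where 2215 genes had an unadjusted p under 0.05 and DESeq2 called 108. No mutant had all its libraries below all WT libraries for any of the 3 genes. The share of all tested genes that did so was not counted, so this does not set the 3 genes apart.

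Whether the genes passed edgeR's threshold against WT depended on WT replicate 2. Without it, *GADD45B* passed in Tg1 (log2 difference -0.42), Tg2 (-0.52) and Tg3 (-0.58), *GADD45G* in Tg2 (-0.54) and Tg3 (-0.71), and *TRIB1* in Tg3 (-0.41). The genes were chosen for high WT counts and this library is the lowest of WT for all 3, so the choice fixes the direction of that shift, and the values without it are a description and no test. Leaving out that library also raised the DEGs of all genes from 8 to 852 for Tg1, from 684 to 2421 for Tg2 and from 0 to 1321 for Tg3, so the 3 genes were not alone in shifting. WT replicates 2 and 3 had the largest difference of all replicate pairs, at 46.6 chi-square units per degree of freedom, against 2.90 for Tg3 replicates 1 and 3, the closest pair. No label sets WT replicate 2 apart, and it was kept.

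The mutants were compared with each other, where the fold changes rest on neither the NC nor the WT libraries. Their intervals and p-values still used the spread estimated over all 15 libraries, with NC and WT among them. *GADD45G* gave the widest difference, 46.4 CPM in Tg1 against 36.1 CPM in Tg3, a log2 fold change of 0.36 (95% confidence interval -0.028 to 0.75, edgeR's adjusted p = 0.353). Its Tg1 libraries all exceeded its Tg3 libraries, as was the case for 11.8% of the tested genes. *GADD45B* differed by 0.16 (-0.12 to 0.44) and *TRIB1* by 0.13 (-0.11 to 0.37) between Tg1 and Tg3. Tg1 and Tg2 differed by 0.098 (-0.18 to 0.38) for *GADD45B*, 0.19 (-0.19 to 0.58) for *GADD45G* and -0.016 (-0.26 to 0.22) for *TRIB1*. Between Tg2 and Tg3 the values were 0.065 (-0.22 to 0.35), 0.16 (-0.23 to 0.56) and 0.15 (-0.09 to 0.39). None of these 9 differences passed the test, and each interval allows a difference in either direction. Among all tested genes, DEGs made up 0.138% for Tg1 against Tg2, 0.615% for Tg1 against Tg3 and 0% for Tg2 against Tg3, the last with 673 genes at an unadjusted p under 0.05 and 0 DEGs by DESeq2.

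**Figure D2:**
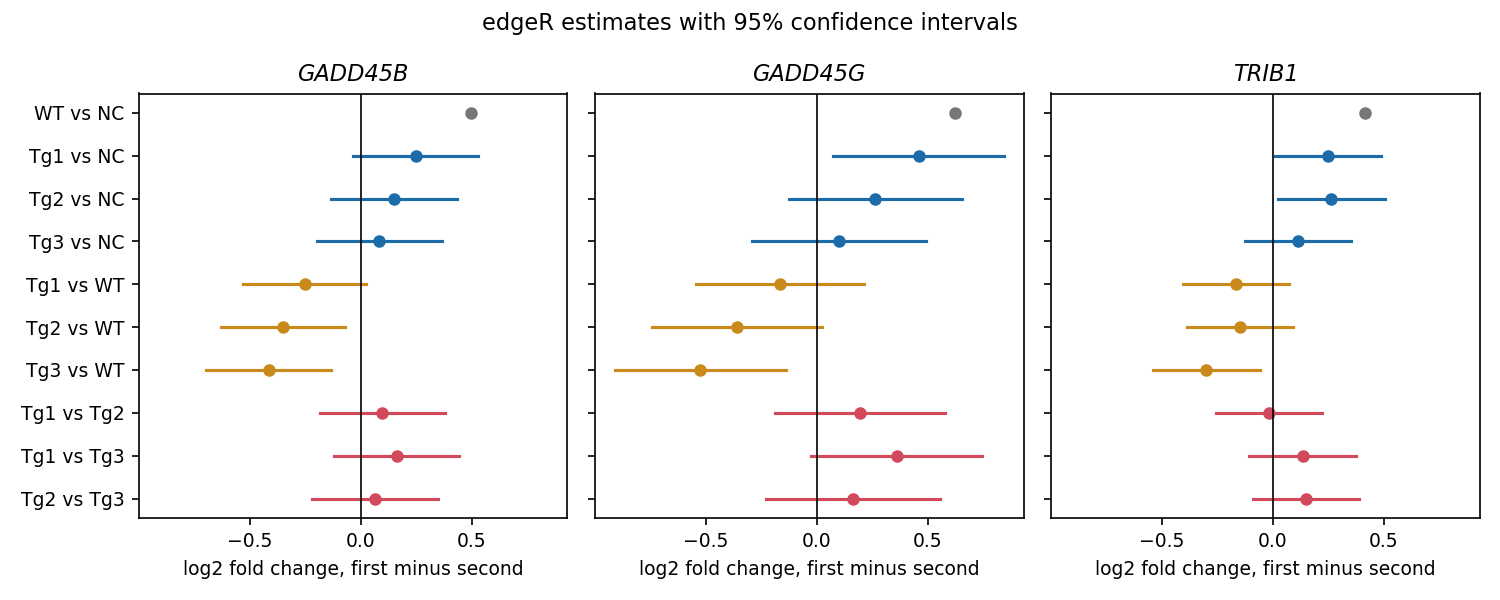
Log2 fold changes of the 3 genes (x axes, first plasmid minus second) in the 10 comparisons (y axis), with edgeR's 95% confidence intervals as lines. WT against NC, which chose the genes, is shown as a point without an interval. Points lie above 0 in all comparisons with NC and below 0 in all comparisons of a mutant with WT.

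Within a plasmid, the 3 genes rose and fell together from well to well. Over the 15 libraries, deviations of log2 CPM from the plasmid mean correlated with Pearson's r = 0.854 between *GADD45B* and *GADD45G*, 0.842 between *GADD45B* and *TRIB1*, and 0.891 between *GADD45G* and *TRIB1*. Permuting the libraries within plasmids in all 7776 ways gave exact two-sided p-values of 0.000386, 0.00090 and 0.00154, or 0.00116, 0.00135 and 0.00154 with Benjamini-Hochberg adjustment over the 3 pairs. Spearman's rho was 0.854, 0.807 and 0.757, with exact permutation p-values of 0.0018, 0.000643 and 0.00347 (adjusted p = 0.0027, 0.00193 and 0.00347). The group means drop out of these deviations. The WT libraries stay in, and WT replicates 1 and 3 carried most of the higher level that chose the genes, so these p-values are not free of the choice.

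The r values stayed high without the extreme libraries. Without the 2 libraries farthest from the median of the first gene, r was 0.771, 0.817 and 0.808, and without WT replicate 2 it was 0.752, 0.786 and 0.837. In the 9 libraries of the mutants, whose levels do not enter the fold change of WT over NC, r was 0.730, 0.822 and 0.839 and rho 0.667, 0.767 and 0.550. The exact permutation p-values of those r values over 216 arrangements were 0.0231, 0.0139 and 0.0185, all 0.0231 after adjustment. By rank, with 9 libraries, the exact permutation p-values of rho were 0.0556, 0.00926 and 0.0694, so the pairs with *GADD45G* did not pass in the mutants alone. Other genes shared this movement, since 33, 44 and 32 tested genes, the partner included, had an r at least as high with the first gene of each pair. The leading axis of the deviations of all tested genes held 46.2% of their variance. Deviations of *GADD45B*, *GADD45G* and *TRIB1* had an r of 0.61, 0.77 and 0.48 with it, and of 0.21, 0.19 and 0.28 with those of the log2 library totals, and the part of this axis in the correlations was not tested. The labels give no batch besides the replicate number. Replicate 3 was above the plasmid mean in all 5 plasmids for *GADD45G* (0.061 to 0.24) and *TRIB1* (0.075 to 0.14). *GADD45B* was above it too (0.056 to 0.22), except in Tg3 (-0.028). On the leading axis, replicate 2 had the same sign in all 5 plasmids (-18.9 to -3.32). The part of the replicate number in the correlations was not tested, and the permutations treat same-numbered libraries of different plasmids as unrelated.

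**Figure D3:**
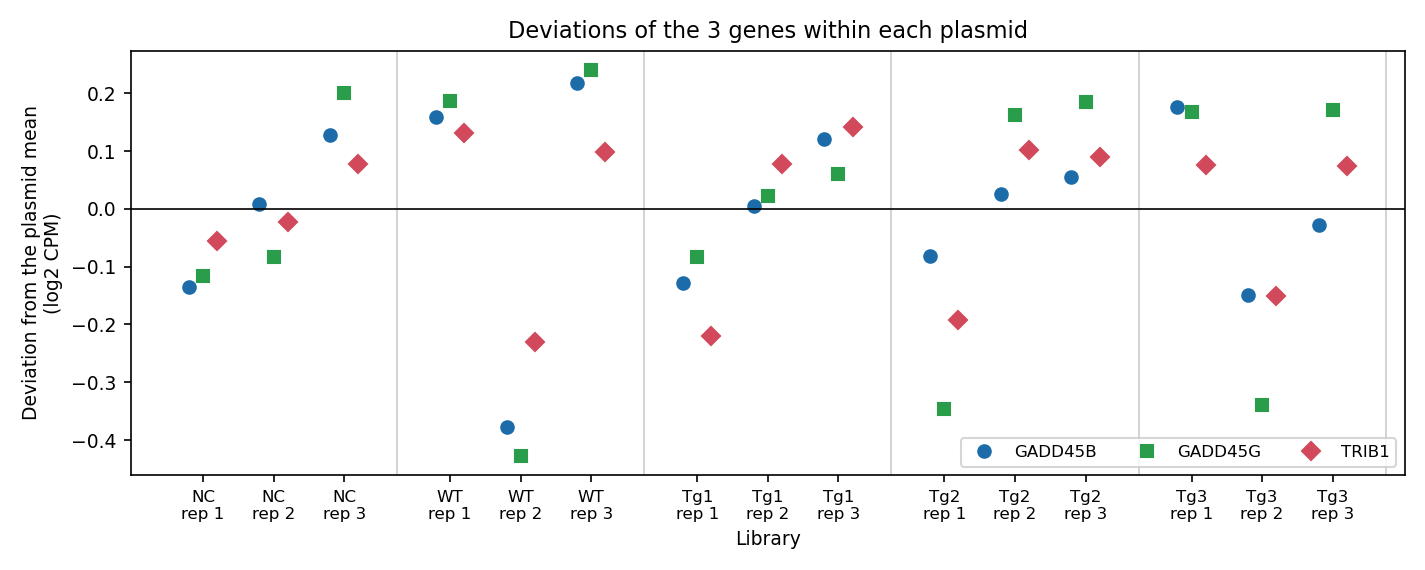
Deviation of each of the 3 genes from its plasmid mean in log2 CPM (y axis) in the 15 libraries (x axis), with vertical lines between plasmids. NC replicate 1, WT replicate 2, Tg1 replicate 1, Tg2 replicate 1 and Tg3 replicate 2 are below 0 for all 3 genes. Above 0 for all 3 are NC replicate 3, WT replicates 1 and 3, and Tg3 replicate 1. So are replicates 2 and 3 of Tg1 and of Tg2.

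For each of the 3 genes, the 5 genes with the highest Pearson r over the 15 libraries were named. For *GADD45B* they were *ATF3*, a stress-induced transcription factor (r = 0.975), *RCAN1*, an inhibitor of calcineurin (0.959), the matricellular genes *CCN2* (0.958) and *CCN1* (0.934), and the polo-like kinase gene *PLK2* (0.922). *GADD45G* was closest to *FOS* (0.972), which with *JUN* (0.934) encodes AP-1, to the nuclear receptor gene *NR4A1* (0.934), to *HDGFL2* (0.931) and to *PLK2* (0.920). Nearest to *TRIB1* were *CCN1* (0.960), *NFKBIZ*, a nuclear IκB protein gene (0.959), the zinc finger genes *EGR1* (0.945) and *EGR2* (0.926), and the MAPK phosphatase gene *DUSP1* (0.937). An r above 0.9 was reached by 12 genes for *GADD45B*, 13 for *GADD45G* and 10 for *TRIB1*, and 4 genes reached it with all 3. These values include the WT level that chose the members, and with deviations from plasmid means the r of the named genes was 0.882 to 0.989.

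The 13 similar genes were picked over the same 15 libraries, so their likeness to the members in WT follows from the choice and is only described. *FOS* had 838, 524 and 861 CPM in WT replicates 1 to 3, against 510 to 619 CPM in NC. *CCN2* had 136, 55.3 and 144 CPM, against 52.4 to 62.5 CPM, and *NR4A1* had 315, 116 and 347 CPM, against 126 to 168 CPM. For all 13 genes WT replicates 1 and 3 were above the NC range, and for 10 of them WT replicate 2 was within it. *ATF3* averaged 418 ± 116 CPM in WT (SD, n = 3), 322 ± 39.4, 293 ± 19.7 and 272 ± 18.5 CPM in Tg1, Tg2 and Tg3, and 266 ± 29.0 CPM in NC, the same order as *GADD45B*.

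*GADD45A*, the third GADD45 gene, had 287 ± 8.84 CPM in NC and 337 ± 60.8 CPM in WT, and 289 ± 3.29, 270 ± 11.5 and 280 ± 16.9 CPM in Tg1, Tg2 and Tg3 (SD, n = 3). It was a DEG between Tg2 and WT only (log2 fold change -0.32, SE 0.093, edgeR's adjusted p = 0.0469), a call that was lost without WT replicate 1, WT replicate 3, Tg2 replicate 1 or Tg2 replicate 2 (adjusted p = 0.14, 0.215, 0.163 and 0.131). The other Tribbles genes were not DEGs in any of the 10 comparisons, with group means of 22.7 to 26.1 CPM for *TRIB2* and 19.8 to 22.5 CPM for *TRIB3*. The mRNA of *MAP3K4*, the kinase that GADD45 proteins activate, was higher in Tg2 (45.7 ± 2.14 CPM) than in NC (39.2 ± 1.47 CPM). Its adjusted p by edgeR was 0.0261 but its log2 fold change of 0.22 stayed under the fold threshold. *MAP2K3*, *MAP2K4*, *MAP2K6* and *MAP2K7*, the kinases between *MAP3K4* and p38 or JNK, were not DEGs in any comparison, and neither were *MAPK8* and *MAPK9*, which encode JNK, *MAPK14*, which encodes p38α, *COP1* and *CDKN1A*.

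*CEBPB*, whose product is a substrate of the TRIB1 and COP1 complex, ran in another order than *TRIB1*. Its level was 57.7 ± 2.36 CPM in NC and 50.3 ± 14 CPM in WT, and 72.3 ± 15.0, 80.8 ± 15.5 and 75.3 ± 6.20 CPM in Tg1, Tg2 and Tg3 (SD, n = 3). The Tg2 level was above that of WT (log2 fold change 0.68, SE 0.19, edgeR's adjusted p = 0.0408), and the libraries of both groups overlapped, with 38.1 to 65.5 CPM in WT and 63.3 to 93.0 CPM in Tg2. This call too was lost without any of the same 4 libraries (adjusted p = 0.134, 0.186, 0.155 and 0.128 by edgeR). Against NC, *CEBPB* was not a DEG in any group. *CEBPA* was not among the genes tested.

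The wider stress MAPK pathway was read from a list of 92 other genes in 12 roles, of which 78 were tested. The list was drawn up with earlier results of these data known. It holds *MYC* and *IER3*, which the study reports as raised with every insert, so its shares of DEGs are a description and no test of the pathway. In Tg1, 4 of them rose and 1 fell, 6.41% of the list against 1.19% of all genes, and in Tg2 9 rose and 2 fell, 14.1% against 8.43%. No listed gene was a DEG in WT or Tg3 by edgeR, while DESeq2 called 4 in each. The medians of the list were near 0 in all 4 comparisons, at 0.023 (WT), 0.011 (Tg1), 0.035 (Tg2) and 0.031 (Tg3), beside -0.0036, 0.0034, -0.0066 and -0.0018 for all tested genes. These counts rested on single libraries. Leaving out NC replicate 3 or Tg2 replicate 2 left 0 of the listed genes and 0 of all genes called in Tg2. Leaving out NC replicate 1, NC replicate 3 or Tg1 replicate 2 left 0 listed genes in Tg1.

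Most of the DEGs in the list were transcription factors, their targets and MAPK phosphatases, at the output end of the cascade. Of 13 stress transcription factors and targets, 4 rose in Tg1 and 5 in Tg2, and their median log2 fold change over NC was 0.30 (WT), 0.27 (Tg1), 0.26 (Tg2) and 0.087 (Tg3). *JUNB*, an AP-1 subunit gene, averaged 122 ± 8.69 CPM in NC, 162 ± 16.0 in Tg1 (log2 fold change 0.41, edgeR's adjusted p = 0.0222) and 174 ± 7.58 in Tg2 (0.52, adjusted p = 0.00877). *ZFP36*, which encodes an mRNA decay factor, rose from 470 ± 32.4 to 647 ± 68.6 CPM in Tg1 and 685 ± 52.0 CPM in Tg2 (adjusted p = 0.0222 and 0.0107). *IER3*, an immediate early gene, rose from 187 ± 8.20 to 254 ± 21.3 CPM in Tg1 and 291 ± 26.1 CPM in Tg2 (adjusted p = 0.027 and 0.00865). The AP-1 subunit gene *FOSL1* was a DEG in Tg2, at 104 ± 3.87 against 63.9 ± 6.30 CPM (adjusted p = 0.0107). Other tested *FOS* and *JUN* family genes were not DEGs in Tg2, with log2 fold changes of 0.062 (*JUN*), 0.13 (*FOS*), -0.18 (*FOSB*) and -0.10 (*FOSL2*) over NC. *MYC* rose from 226 ± 8.66 CPM in NC to 286 ± 27.3 CPM in Tg1 and 323 ± 15.7 CPM in Tg2 (adjusted p = 0.0246 and 0.00865). These rises were not particular to the mutants with a call. In WT, *JUNB*, *ZFP36*, *IER3*, *FOSL1* and *MYC* had log2 fold changes over NC of 0.27, 0.25, 0.49, 0.47 and 0.30. Those in Tg3 were 0.32, 0.33, 0.40, 0.41 and 0.32. By edgeR none of these was a DEG in WT or Tg3, or between a mutant and WT.

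Of 8 tested MAPK phosphatases, which remove phosphate from p38, JNK or ERK, 4 rose in Tg2 and *DUSP9* fell, from 13.5 ± 1.31 to 10.03 ± 1.65 CPM (log2 fold change -0.42, edgeR's adjusted p = 0.0383). The 4 were *DUSP1* (0.41), *DUSP5* (0.52), *DUSP6* (0.65) and *DUSP10* (0.77), of which the last 3 are named after their values were seen. In WT their log2 fold changes over NC were 0.41, 0.53, 0.22 and 0.080, and none was a DEG there by edgeR. *TP53INP1*, a p53 target, fell in Tg2 from 247 ± 16.7 to 191 ± 7.84 CPM (adjusted p = 0.0194 by edgeR). It was the only DEG among 7 tested p53 targets there, of which 5 were higher than in NC and 2 lower (median log2 fold change 0.077).

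Upstream, the only DEG against NC among the 18 tested MAP3 kinases and adaptors was *TAOK1*, a kinase that can feed the p38 cascade. It fell from 28.9 ± 1.89 CPM in NC to 22.3 ± 1.60 CPM in Tg1 (log2 fold change -0.37, edgeR's adjusted p = 0.0297) and was at 27.3 ± 1.49 CPM in Tg2. In Tg2 and in Tg1, none of the 4 MAP2 kinases, 5 JNK and p38 kinases, 4 JNK scaffolds, 6 downstream kinases and 6 GADD45 partners tested was a DEG against NC. The share over all tested genes was 1.19% in Tg1 and 8.43% in Tg2, so the absence of calls in such short lists does not set them apart. Among the epithelial markers, 7 of 17 were DEGs in Tg2 (1 higher, 6 lower) and 0 in the other groups against NC, and their part in the other Tg2 values was not tested.

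**Figure D4:**
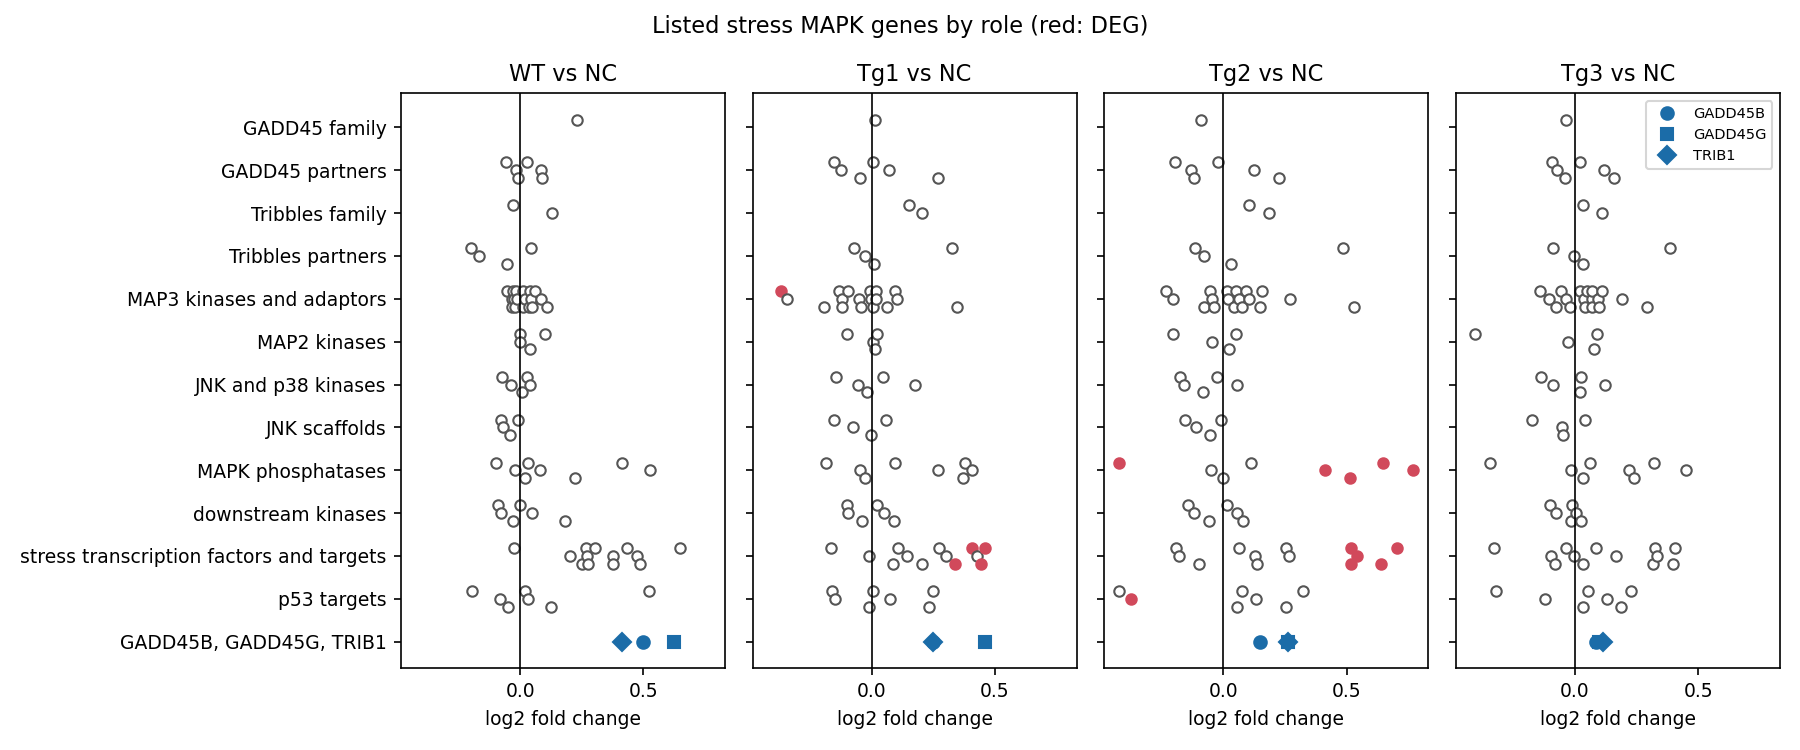
Log2 fold changes over NC (x axes) of the 78 tested genes of the list by role (y axis) for each insert, each circle a gene and red circles DEGs, with *GADD45B*, *GADD45G* and *TRIB1* in blue in the lowest row. Red circles are found among phosphatases, stress transcription factors and targets, MAP3 kinases and p53 targets, and the blue symbols lie farthest to the right in WT, where they were chosen.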

How the data were processed

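RNA of 15 libraries of LLC-PK1 cells (5 plasmids, 3 replicates) was sequenced by the authors. They quantified it with Salmon against the Ensembl release 98 pig cDNA set. The table they deposited holds estimated counts per gene, as whole numbers and without normalization. How transcripts were summed to genes is not given in the sources used here. Each library had 20216200 to 26132196 counts. Columns were matched to samples, and samples to plasmids, by their labels. The WT titles carry the same genotype number as those of Tg3, while the name in brackets, the insert and the column names all give WT.

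The filter kept 11553 genes whose mean CPM reached 2, and they held 99.8% of all counts. Counts were fitted with edgeR 4.0.16 in R 4.3.3 (TMM, glmQLFit and glmQLFTest, all libraries in a single model of group means), with Benjamini-Hochberg adjustment over all tested genes. The authors used DESeq2, which was run here as an alternative (DESeq2 1.42.0). DEGs needed an adjusted p of at most 0.05 and a log2 fold change of at least 0.26 in size, thresholds taken from the authors. The SE is the log2 fold change over the root of its F statistic. Correlations used log2 CPM (prior count of 2) as deviations from the plasmid mean, with an exact permutation within plasmids.

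The 3 genes, the pathway and marker lists and the tests were chosen with earlier results of these data known. Named genes are the 3 members, their relatives and direct partners, up to 4 listed DEGs a direction with the smallest adjusted p in each mutant against NC, and the 5 genes with a symbol and the highest Pearson r with each member. The alternatives were DESeq2, its size factors, other filters on low counts, fits restricted to the 2 plasmids compared, no fold threshold, a replicate block, and the omission of each library in turn. The correlation in the mutant libraries was added after the data were seen. The scripts were tested on simulated counts. No sequences or coordinates are given, since the sources used here name no genome build for the table.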

Additional observations from a re-analysis of the deposited data

Results flagged for a closer look

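Among the named genes, 3 differed between Tg2 and WT by edgeR's test of that difference. *GADD45A* was lower in Tg2 than in WT (log2 fold change -0.32, SE 0.093, adjusted p = 0.0469), *CEBPB* was higher (0.68, SE 0.19, adjusted p = 0.0408), and *TP53INP1* was lower (-0.40, SE 0.081, adjusted p = 0.0277). All 3 kept their direction when any library of Tg2 or WT was left out. None of them passed the test without WT replicate 1 (adjusted p = 0.14, 0.134 and 0.0988), without WT replicate 3 (0.215, 0.186 and 0.129), without Tg2 replicate 1 (0.163, 0.155 and 0.0928) or without Tg2 replicate 2 (0.131, 0.128 and 0.109). With only the libraries of Tg2 and WT fitted, 0 of all genes were DEGs, so the 3 calls were lost there too. Each passed without WT replicate 2, without Tg2 replicate 3, with DESeq2 and in the replicate block fit. Of the 78 tested pathway genes 7 were DEGs between Tg2 and WT, 8.97% against 5.92% of all tested genes. That share too is only described, since the list was drawn up with earlier results known. The other 4, named after their values were seen, were *DUSP6* (0.43), *DUSP10* (0.69), *MAP3K12* (-0.29) and *FOSL2* (-0.37).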

How the results depend on the processing

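Of 351 alternative values for the 27 tested log2 fold changes of the 3 genes, 339 kept direction and side of the threshold, 7 passed it and 5 changed sign. The 39 values for WT against NC, which was not tested, were all above 0. Of the 7, *GADD45G* in Tg1 against NC passed with only the groups compared (0.46, 1 of 3 members called), and the others passed without WT replicate 2. Leaving out each library in turn gave, against WT, -0.42 to -0.14 for *GADD45B* in Tg1 (0 to 1 members called), -0.52 to -0.24 for *GADD45B* and -0.54 to -0.21 for *GADD45G* in Tg2 (0 to 2 members), and -0.58 to -0.30, -0.71 to -0.38 and -0.41 to -0.23 for *GADD45B*, *GADD45G* and *TRIB1* in Tg3 (0 to 3 members). Signs changed for *GADD45B* in Tg3 against NC (-0.0076 without Tg3 replicate 1, range to 0.15), for *GADD45B* in Tg2 against Tg3 (-0.0044 without Tg3 replicate 2, range to 0.16) and for *TRIB1* in Tg1 against Tg2 (0.086 without Tg1 replicate 1, 0.034 and 0.028 without Tg2 replicates 2 and 3, range from -0.11), none of which passed the test. The causes of these changes were not tested.

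DEGs over all genes changed more. DESeq2 gave 10 (WT), 243 (Tg1) and 45 (Tg3) against NC, 76 (Tg1), 1184 (Tg2) and 108 (Tg3) against WT, 156 for Tg1 against Tg2 and 137 for Tg1 against Tg3. With no fold threshold there were 264 for Tg1 and 1643 for Tg2 against NC, 1099 for Tg2 against WT and 118 for Tg1 against Tg3. Without a filter on low counts, Tg1 had 2 against WT and 7 against Tg2, also 7 with filterByExpr. With only the groups compared, there were 0 for Tg1 and Tg2 against WT and for Tg1 against Tg2, and 32 for Tg1 against Tg3. Leaving out single libraries gave 0 to 25 (WT), 16 to 83 (Tg1) and 0 to 1878 (Tg2) against NC, 0 to 852 (Tg1), 0 to 2421 (Tg2) and 0 to 1321 (Tg3) against WT, 0 to 117 for Tg1 against Tg2 and 3 to 115 for Tg1 against Tg3.

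Replicate numbers are shared between plasmids, but 20 of 30 same-numbered pairs of libraries correlated above 0.1 (lowest r -0.36, mean 0.14 against -0.071 for differently numbered pairs) and 9 of 15 libraries correlated best with their own number, so a pairing was not established. The mean of differently numbered pairs is tied to the other, since deviations are taken from plasmid means, and is no separate background. With the replicate block the DEGs were 246 (Tg1), 1624 (Tg2) and 11 (Tg3) against NC, 66 (Tg1), 1578 (Tg2) and 111 (Tg3) against WT, 162 for Tg1 against Tg2 and 108 for Tg1 against Tg3. The block changed no call of the 3 genes.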
